A study of Mus musculus with 6 samples.

Results

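The apoptotic caspases and their regulators were examined in H22 tumours as 8 genes, chosen by gene symbol from the 21720 symbols of the expression table. They were the initiator caspases Casp2, Casp8 and Casp9, the effector caspase Casp6, the apoptosome genes Apaf1 and Cycs, the caspase inhibitor Xiap and its antagonist Diablo. All 8 were found, and all 8 were among the 14963 genes that passed the filter on low counts. H22 is a mouse hepatocellular carcinoma line, which was grown under the skin of female BALB/c mice aged 6 to 8 weeks. The control group received 0.5% carboxymethyl cellulose sodium and the luteolin group luteolin, a flavonoid of many plants, at 200 mg/kg, both in 0.2 mL by gavage each day for 21 days. Dosing started at a tumour volume of about 50 mm3 according to the labels, which give the tumours as wild type and of the same line in both groups. Each group gave 3 RNA-seq libraries of whole tumour tissue, numbered as in the labels. Where 3 values are given for a group, they stand in the order of replicates 1, 2 and 3. The labels do not say whether each library came from a separate mouse, so that p values measure the spread between these libraries.

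Caspases are proteases that dismantle a dying cell and are held as inactive precursors. Initiator caspases are activated when a platform brings them together. In the extrinsic route, a death receptor at the cell surface recruits caspase-8. In the intrinsic route, mitochondria release cytochrome c, the product of Cycs, which assembles with APAF1 into the apoptosome and activates caspase-9. Both routes then cleave effector caspases. XIAP binds and blocks active caspases, and DIABLO, also released from mitochondria, displaces XIAP. Since activation is by assembly, cleavage and release, mRNA levels do not measure the activity of these proteins. The amounts of the proteins were not measured here either.

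The 4 caspases share a catalytic cysteine, and the coding bases around it are shown because this is the site by which they are one family. The sequences were read from GENCODE M21 transcripts, 5′ to 3′, with the cysteine codon in capitals, and 1 such site was found in each coding sequence.
Casp2: ttcatccaagcaTGTcgtggagatgag
Casp6: atcatccaggccTGTcggggtagccag
Casp8: ttcattcaggctTGCcaaggaagtaac
Casp9: ttcatccaggccTGCggtggtgagcag
The codon began at base 958 of the coding sequence in Casp2, 436 in Casp6, 1084 in Casp8 and 973 in Casp9. Casp2 and Casp6 used TGT, and Casp8 and Casp9 used TGC.

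The study also measured Casp8 and Casp9 by qRT-PCR, and the primers are shown because they mark which part of each mRNA that assay reads.
Casp8 forward: agactgcaaccgagaggaga
Casp8 reverse: cgctcacttcttctgagagc
Casp9 forward: tgcccttgcctctgagtagt
Casp9 reverse: aacaaagaaacgcccacaac
On GRCm38 the Casp8 forward primer matched coding exon 2 at chr1:58824179-58824198 and the reverse primer coding exon 3 at chr1:58827222-58827241, on either side of an intron. The amplicon is 104 bp, and both primers occurred in 4 of 4 annotated Casp8 transcripts. The Casp9 primers matched the 3′ untranslated part of exon 9, at chr4:141815375-141815394 and chr4:141815518-141815537, with an amplicon of 163 bp. Both Casp9 primers occurred in 1 of 6 annotated Casp9 transcripts, whereas the RNA-seq table gives 1 value per gene symbol. Neither pair matched another gene.

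Total counts ranged from 61081637 to 80442954 per library. Values are given as CPM, counts relative to the library total as scaled by edgeR's TMM factors and multiplied up to parts per 1000000. The sum of 10 hepatocyte and hepatoma markers was 593 to 679 CPM in the control libraries and lower, at 391 to 569 CPM, in every luteolin library. Most of this sum was Trf and Krt18, and it does not describe the list as a whole. Trf, the most abundant, had 294 to 346 CPM against 122 to 283 CPM, and Afp 43.4 to 66.6 CPM against 32.6 to 41.8 CPM, without overlap. Krt18 overlapped, at 224 to 265 CPM against 192 to 234 CPM. Alb was uneven within both groups, with 3.06, 60.2 and 0.867 CPM against 132, 26.0 and 31.9 CPM, and its mean was higher in the luteolin group. Serpina1a, Apoa1, Apoa2 and Krt8 also had a higher mean in the luteolin group, with overlapping values. Ttr and Hnf4a did so too, but lay under 1 CPM in every library. The tumours also held host cells. The summed level of 6 pan-leukocyte markers was 669 to 718 CPM in the control libraries against 862 to 957 CPM in the luteolin libraries, and 4 of the 6 were higher in all luteolin libraries than in any control library. Laptm5 was one of these, at 62.6 to 82.9 CPM in the control and 120 to 195 CPM in the luteolin libraries, but Lcp1, the most abundant of the 6, was lower, at 470 to 509 CPM and 356 to 433 CPM. The T cell markers, among them Thy1 and Lck, were higher in this way for 9 of 9 genes, with sums of 35.6 to 39.0 CPM against 116 to 231 CPM. The sum of 10 macrophage and myeloid markers was 1747 to 2167 CPM against 2134 to 3515 CPM, with 7 of the 10 higher in every luteolin library. The most abundant of them, Lyz2 and C1qa, were not among these. Lyz2 had 945 to 1105 CPM against 880 to 1459 CPM, and C1qa 190 to 256 CPM against 241 to 501 CPM. Of all genes tested, 15.9% were higher in every luteolin library than in any control library. The sum of 8 fibroblast markers, led by Col3a1 and Col1a1, was 1434 to 1606 CPM against 2077 to 5055 CPM, with 6 of the 8 higher. Luteolin replicate 2 stood apart by 10 skin keratinocyte markers, whose sum was 9170 CPM there, 396 and 21.9 CPM in luteolin replicates 1 and 3 and 14.7 to 19.2 CPM in the control group, where Krt5, Krt14, Krt1, Krt15 and Dsg1a were at 0. Most of the control sum was Ivl, at 9.30 to 13.7 CPM, which was lower in luteolin replicates 1 and 3, at 5.22 and 4.39 CPM. In bulk tumour RNA, fewer cells of a type and less RNA per cell cannot be told apart.

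The comparison of the luteolin group with the control group asks whether the drug changed the mRNA of the caspase machinery in the tumour. No change was detected in any of the 8 genes. The test was edgeR's quasi-likelihood test, with p values adjusted over all genes tested by the method of Benjamini and Hochberg. With the adjusted p required to be under 0.05, 0 of the 8 genes were called, beside 1.52% of all genes tested (1.34% higher and 0.187% lower in the luteolin group). The threshold of the study required an unadjusted p under 0.05 and a fold change over 2. The study used it with DESeq2, and it is applied here to edgeR's test unless another is named. By it 0 of the 8 were called, beside 12.8%. At an unadjusted p under 0.05 alone the count was also 0, beside 20.5%, and DESeq2 called 0 of the 8 with or without adjustment. For each of the 8 genes the values of the groups overlapped, whereas the groups did not overlap for 28.7% of all genes tested (15.9% higher and 12.8% lower in the luteolin group). Without luteolin replicate 2, the library with high keratinocyte markers, the groups still overlapped for each of the 8 genes, beside 37.7% of all genes without overlap. The adjusted p values ran from 0.336 for Diablo to 0.996 for Casp9. All 8 log2 fold changes were under 0, as were those of 50.7% of all genes tested. The median was -0.22 over the 8 genes and -0.01 over all genes tested. The sign depended on single libraries or settings for Casp9, Cycs and Xiap. For 7 of the 8 genes, all but Xiap, the 95% interval of the log2 fold change lay between -1 and 1, so that a change of more than 2-fold lay outside the interval.

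**Figure D1:**
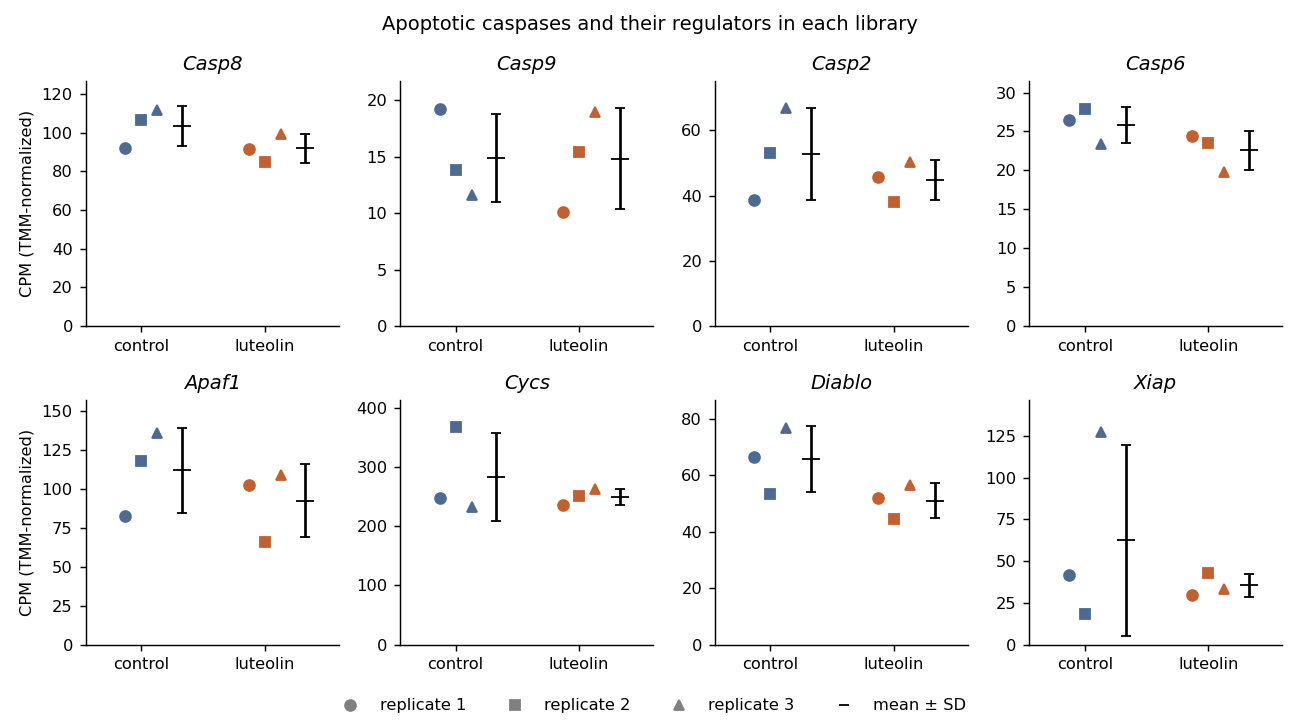
CPM (vertical axes, starting at 0) of the 8 genes in the 3 control and 3 luteolin libraries, 1 symbol per replicate number, with the group mean and SD as a bar. The groups overlap in every panel, and the widest spread is that of Xiap in the control group, from 18.4 to 127 CPM.

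Casp8, the initiator of the death receptor route, was the most abundant of the 4 caspases, and its highest library was at most 1.21 times its lowest within a group. It had 92.04, 106.9 and 112 CPM in the control libraries against 91.7, 84.8 and 99.6 CPM in the luteolin libraries. The luteolin libraries sat at the low end, and luteolin replicate 3 lay above control replicate 1. The means were 104 ± 10.3 and 92.02 ± 7.45 CPM (SD, n = 3 each), with a log2 fold change of -0.17 (standard error 0.15, 95% interval -0.52 to 0.18, adjusted p = 0.577 in edgeR). Casp8 was the one gene of the 8 whose groups separated when each library's trend with GC content and transcript length was removed. Its log2 deviation from the mean of the libraries was then 0.07, 0.09 and 0.04 in the control replicates and -0.14, -0.03 and -0.04 in the luteolin replicates. Under this scaling the groups did not overlap for 36.4% of 14635 genes, and the log2 fold change of Casp8 was -0.12 with an adjusted p of 0.448 from edgeR's test. The gene shared 0.84% of its 100-base runs with another annotated gene.

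Casp9, the initiator activated on the apoptosome, had the lowest mean CPM of the 8 genes in both groups, with nearly equal group means. It had 19.2, 13.8 and 11.6 CPM in the control libraries against 10.1, 15.5 and 18.9 CPM in the luteolin libraries. Both groups covered nearly the same range, with the lowest value of all in luteolin replicate 1. The means were 14.9 ± 3.91 and 14.8 ± 4.45 CPM (SD, n = 3 each), with a log2 fold change of -0.01 (standard error 0.32, 95% interval -0.75 to 0.74, adjusted p = 0.996 in edgeR). Casp9 exons overlap those of Cela2a and Ctrc, which encode pancreatic proteases, on the opposite strand. Cela2a had 0 counts in every library, which allows up to 3 counts in each.

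Casp2, an initiator that is activated on the PIDDosome after DNA damage, had 38.6, 53.0 and 66.8 CPM in the control libraries against 45.8, 38.2 and 50.3 CPM in the luteolin libraries. The control libraries alone spanned a 1.73-fold range and enclosed all luteolin libraries except replicate 2, which lay just under control replicate 1. The log2 fold change was -0.24 (standard error 0.23, 95% interval -0.79 to 0.32, adjusted p = 0.629 in edgeR). It was -0.04 without control replicate 3, the library with the highest value.

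Casp6, an effector caspase known for cleaving nuclear lamins, had 26.4, 27.9 and 23.3 CPM in the control libraries against 24.4, 23.5 and 19.7 CPM in the luteolin libraries. Control replicate 3 fell among the luteolin libraries, and luteolin replicate 3 was the lowest of all. The means were 25.9 ± 2.31 and 22.6 ± 2.49 CPM (SD, n = 3 each), and the log2 fold change was -0.20 (standard error 0.18, 95% interval -0.62 to 0.23, adjusted p = 0.599 in edgeR). Without control replicate 3, Casp6 was lower in every luteolin library than in both remaining control libraries. It was the 1 gene of the 8 without overlap in that setting, beside 37.8% of all genes tested in either direction.

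Apaf1, the scaffold of the apoptosome, had 82.2, 118 and 136 CPM in the control libraries against 102, 65.8 and 109 CPM in the luteolin libraries. Luteolin replicate 2 was the lowest library and control replicate 1 the next, so that the lowest values came from both groups. The log2 fold change was -0.28 (standard error 0.26, 95% interval -0.90 to 0.34, adjusted p = 0.616 in edgeR), and it was -0.06 without luteolin replicate 2 and -0.12 without control replicate 3.

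Cycs, which encodes cytochrome c of the respiratory chain and of the apoptosome, had 248, 369 and 233 CPM in the control libraries against 236, 251 and 262 CPM in the luteolin libraries. Only control replicate 2 stood outside a narrow band that held the other libraries of both groups. The log2 fold change was -0.18 (standard error 0.20, 95% interval -0.66 to 0.30, adjusted p = 0.682 in edgeR), and without control replicate 2 it was 0.04. In voom with quality weights it was -0.47, with an unadjusted p of 0.0168 and an adjusted p of 0.0664. Cycs shares 24.7% of its 100-base runs with 3 other annotated genes, copies between which reads could have been split. One of them, Gm10053, had 20.4 to 35.3 CPM in the libraries, with its highest value in control replicate 2 as well.

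Diablo, whose protein releases caspases from XIAP, had the smallest p of the 8 genes. It had 66.5, 53.5 and 76.9 CPM in the control libraries against 51.8, 44.4 and 56.6 CPM in the luteolin libraries. The luteolin libraries were low, but control replicate 2 lay under luteolin replicate 3. The means were 65.6 ± 11.7 and 50.9 ± 6.15 CPM (SD, n = 3 each), with a log2 fold change of -0.36 (standard error 0.19, 95% interval -0.81 to 0.08, unadjusted p = 0.095, adjusted p = 0.336 in edgeR). The same-strand gene Gm49027 shares 10.7% of the 100-base runs of Diablo. Gm49027 had 1.83, 16.5 and 2.60 CPM in the control libraries against 8.13, 9.25 and 1.42 CPM in the luteolin libraries, and control replicate 2, its highest library, was the lowest control library for Diablo. Whether reads were divided between these genes was not tested.

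Xiap, an inhibitor of active caspases such as caspase-9, was the most variable of the 8 genes. It had 41.6, 18.4 and 127 CPM in the control libraries against 29.7, 43.1 and 33.4 CPM in the luteolin libraries. The luteolin libraries were close together, and the control libraries lay both below and far above them. The highest control library was 6.92 times the lowest, whereas the ratio was 1.45 in the luteolin group and at most 1.87 in either group for the other 7 genes. Among the 8993 genes tested whose mean level was at least that of Casp9, 0.734% had a control ratio as large. The means were 62.5 ± 57.4 and 35.4 ± 6.90 CPM (SD, n = 3 each). The log2 fold change of -0.82 had a standard error of 0.63 and a 95% interval of -2.32 to 0.68 (adjusted p = 0.527 in edgeR). Single control libraries decided its value. Without control replicate 3 it was 0.23, and without control replicate 2 it was -1.28 with an unadjusted p of 0.0341 and an adjusted p of 0.375 in edgeR's test, which then met the study's threshold. With sample quality weights in limma's voom it was 0.30.

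The spread of these genes was set beside base composition, because the libraries differed in how gene levels followed GC content. Across 14635 genes, which are not independent replicates, the log2 deviation of each library correlated with transcript GC content at a Spearman rho of 0.43, -0.17 and -0.53 in the control group, and of -0.18, 0.44 and -0.37 in the luteolin group. Xiap had 36.8% GC in its longest coding transcript, and 0.731% of the genes tested had less. Cycs had 40.8%, Diablo 44.0%, Apaf1 46.0%, Casp6 46.2%, Casp8 46.6% and Casp2 47.8%. Casp9 was the richest in GC at 53.4%, with 66.2% of the genes tested below it. Control replicate 3, in which GC-poor genes were high, had the highest Xiap, Diablo, Apaf1, Casp2 and Casp8 and the lowest Casp9, Casp6 and Cycs of the control group. With each library's trend with GC content and length removed, the range of Xiap in the control group went from 2.79 to 2.15 on the log2 scale and that in the luteolin group from 0.53 to 1.67. The control range went from 0.72 to 0.40 for Apaf1, from 0.28 to 0.05 for Casp8 and from 0.72 to 0.39 for Casp9, and that of Casp2 from 0.79 to 0.64. It widened for Cycs from 0.66 to 1.06, for Casp6 from 0.26 to 0.51 and for Diablo from 0.52 to 0.68. The log2 fold change of Xiap was -0.13 with these trends removed, with an adjusted p of 0.925 in edgeR's test.

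**Figure D2:**
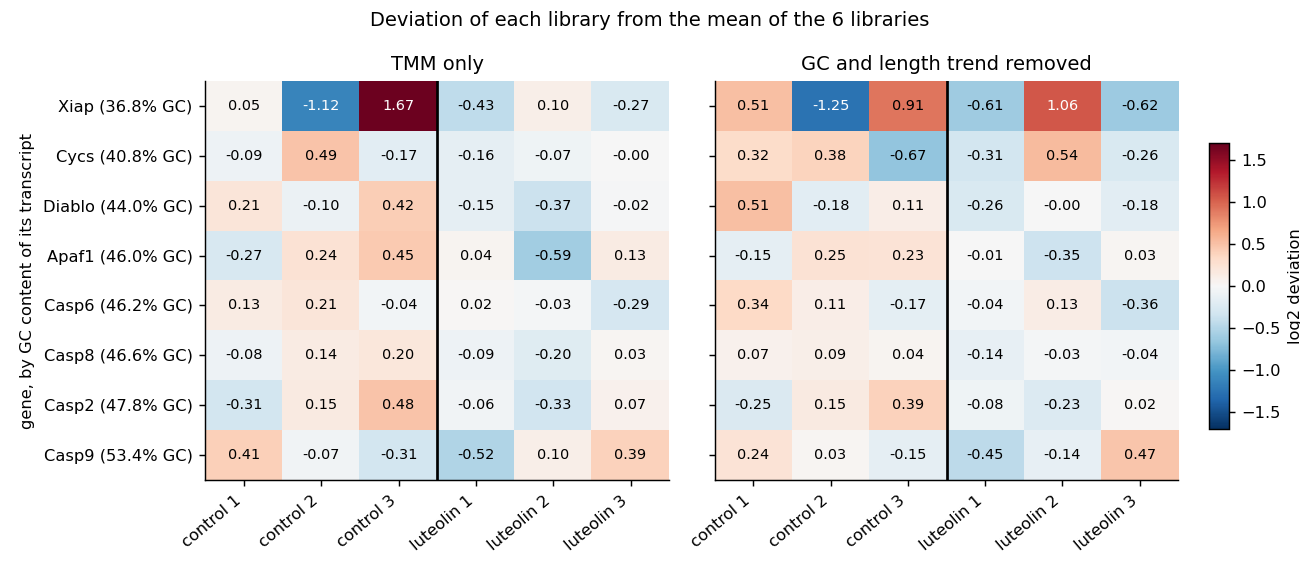
Log2 deviation of each gene in each library from its mean over the 6 libraries, with genes ordered by GC content (rows) and libraries in columns, after TMM scaling (left) and with the GC and length trend of each library removed as well (right). Xiap ranges from -1.12 to 1.67 across the control libraries on the left and from -1.25 to 0.91 on the right, and Casp8 separates the groups on the right only.

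Levels between genes were compared as CPM per kilobase of the longest coding transcript. Cycs was the highest, at 90.6 ± 23.9 in the control libraries against 79.97 ± 4.21 in the luteolin libraries (SD, n = 3 each), followed by Casp8 at 40.1 ± 3.97 and 35.6 ± 2.88. These levels of Cycs and Casp8 did not overlap with each other or with those of any other of the 8 genes in any library. Diablo followed at 25.4 ± 4.52 and 19.7 ± 2.38, then Casp6 at 17.8 ± 1.59 and 15.5 ± 1.71, Apaf1 at 17.0 ± 4.14 and 14.0 ± 3.53 and Casp2 at 14.96 ± 3.99 and 12.7 ± 1.73. Neighbours in this order overlapped in their ranges over the 6 libraries from Diablo downwards. Xiap had 9.14 ± 8.40 and 5.18 ± 1.01, and Casp9 was the lowest at 3.82 ± 1.00 and 3.81 ± 1.14. The order by mean was the same in both groups. The initiator of the extrinsic route was therefore measured at a higher level per length than the initiator of the intrinsic route in every library, which depends on the transcript length assumed.

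**Figure D3:**
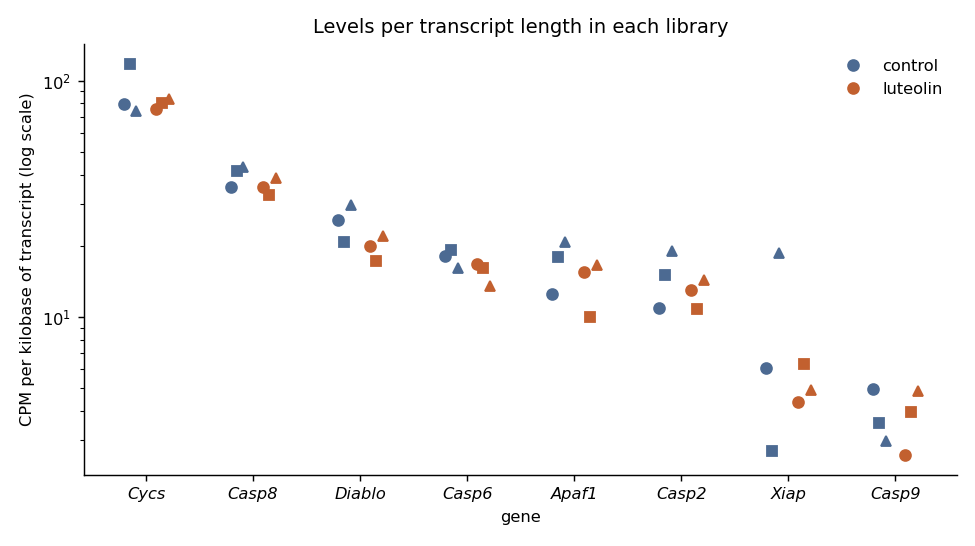
CPM per kilobase of transcript (vertical axis, log scale) of the 8 genes in each control and luteolin library, ordered by the control mean, with replicates 1, 2 and 3 as circles, squares and triangles. Cycs and Casp8 stand above the rest in every library. From Diablo downwards neighbours in the order overlap, and Casp9 overlaps with Xiap but with none of the other genes.

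Ratios within a library need no scaling for library size, and were used to ask whether the balance between activators and the inhibitor moved. They were not adjusted for GC content, and keep the trends with it that differed between libraries. The log2 ratio of Apaf1 to Xiap counts was 0.98, 2.67 and 0.09 in the control libraries against 1.78, 0.61 and 1.71 in the luteolin libraries. The control libraries enclosed all luteolin libraries. The difference between the groups was 0.12, with p = 1 in an exact two-sided permutation test, which cannot go below 0.1 with 3 libraries a group. For Diablo to Xiap it was 0.04 (exact permutation p = 0.9) and for Casp9 to Xiap 0.38 (exact permutation p = 0.9). For Casp8 to Casp9, which sets the extrinsic against the intrinsic initiator, the log2 ratio ranged from 2.26 to 3.26 in the control libraries against from 2.40 to 3.18 in the luteolin libraries, with a difference of -0.15 (exact permutation p = 0.9). Each of these 4 differences was smaller than the SD of the control group, and each changed sign without control replicate 3.

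Other genes of the apoptotic pathway and other caspases, inflammatory ones included, were examined in 5 lists. The lists held 45 genes, of which 44 were tested. At an adjusted p under 0.05 in edgeR's test 0 of the 44 were called. DESeq2 called 7 of the 44 at that level, where it called 11.2% of 17478 genes, a larger set than the 14963 of edgeR. At an unadjusted p under 0.05 in edgeR, 7 were higher and 3 lower, beside 20.5% of all genes tested in either direction. At the study's threshold 5 of the 44 were higher (11.4%), beside 11.3% of all genes tested, and 0 were lower, beside 1.52%. The median log2 fold change was 0.03, and 2 to 6 genes met the study's threshold with a library left out, 2 of them without control replicate 2. The share called higher at the study's threshold was thus close to that of all genes, and the values below describe single genes.

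The other caspases held 2 of the 5 genes at the study's threshold, and both encode inflammatory caspases. Casp4, an inflammatory caspase that senses lipopolysaccharide, had 1.26, 3.07 and 5.81 CPM in the control libraries against 15.4, 11.9 and 9.09 CPM in the luteolin libraries, with a log2 fold change of 1.84 and an adjusted p of 0.145 in edgeR and 0.0128 in DESeq2. Casp1, the inflammasome caspase that matures interleukin-1β, had 1.39, 2.59 and 7.48 CPM against 16.1, 10.0 and 15.8 CPM, with a log2 fold change of 1.87 and an adjusted p of 0.169 in edgeR and 0.0235 in DESeq2. Over the alternatives the adjusted p reached 0.409 for Casp4 and 0.434 for Casp1. In both genes control replicate 3 was the highest control library and still lay under every luteolin library. Casp14, a caspase of the epidermis, was not tested, and had 0 counts in each control library, 443 and 3507 counts in luteolin replicates 1 and 2 and 0 counts in luteolin replicate 3. It was detected in the libraries with the highest keratinocyte sums. Casp14 was chosen after its values were seen. The pan-leukocyte, T cell and fibroblast marker sums were higher in every luteolin library than in the control group, and the macrophage and myeloid sum in luteolin replicates 2 and 3, and their part in the values of Casp4 and Casp1 was not tested.

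Of the receptor and PIDDosome platform genes, 9 of 9 were tested and 1, Fas, met the study's threshold. Fas, the receptor of Fas ligand, had 1.19, 2.84 and 3.16 CPM in the control libraries against 9.39, 7.73 and 6.56 CPM in the luteolin libraries, a log2 fold change of 1.72 (adjusted p = 0.108 in edgeR's test). Tnfrsf10b, the mouse TRAIL receptor, moved the other way, with 213, 205 and 222 CPM in the control libraries against 138, 108 and 130 CPM in the luteolin libraries. Its groups were far apart relative to their spread, with a log2 fold change of -0.77 (standard error 0.15, 95% interval -1.12 to -0.42, adjusted p = 0.0613 in edgeR's test). In DESeq2 both passed, with adjusted p values of 0.00302 for Fas and 0.000763 for Tnfrsf10b, and over the alternatives the highest were 0.339 and 0.303. Over all alternatives the log2 fold change stayed between 1.37 and 1.97 for Fas and between -0.85 and -0.62 for Tnfrsf10b. Both receptors recruit caspase-8. Their log2 fold changes had opposite signs, and in edgeR's test neither receptor nor Casp8 reached an adjusted p under 0.05. They were named as the pair of smallest p in the list. Tnfrsf1a, a further receptor of the list, had 58.7 to 72.4 CPM in the control libraries against 78.1 to 174 CPM in the luteolin libraries. Its log2 fold change was 0.83 (adjusted p = 0.205 in edgeR's test).

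The IAP proteins and their antagonists had 0 of 7 genes at the study's threshold. Birc6, a giant inhibitor of apoptosis that binds caspases and ubiquitinates them, had 245, 313 and 362 CPM in the control libraries against 209, 136 and 218 CPM in the luteolin libraries. Every luteolin library lay under every control library, with a log2 fold change of -0.71 with a standard error of 0.24 (adjusted p = 0.169 in edgeR's test). Xaf1, an interferon-induced antagonist of XIAP, had 11.1, 8.31 and 10.1 CPM against 12.05, 19.2 and 12.03 CPM, with a log2 fold change of 0.55 and an adjusted p of 0.325 in edgeR.

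Of the BCL2 family gatekeepers, which decide whether cytochrome c and DIABLO leave the mitochondria, 2 of 12 met the study's threshold, one that protects cells and one that kills them. Bcl2a1a, a leukocyte survival gene with near-identical copies between which reads could be split, had 4.84 to 8.69 CPM in the control libraries against 11.97 to 16.0 CPM in the luteolin libraries, with a log2 fold change of 1.05 (adjusted p = 0.125 in edgeR's test). Pmaip1, which encodes the pro-apoptotic protein NOXA, had 1.79 to 3.41 CPM against 4.30 to 8.95 CPM, with a log2 fold change of 1.16 (adjusted p = 0.205 in edgeR's test). Its highest value was in luteolin replicate 2. In DESeq2 the adjusted p was 0.0120 for Bcl2a1a and 0.0795 for Pmaip1, and over the alternatives the highest were 0.375 and 0.435.

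Of the caspase substrates and nuclear effectors, 0 of 12 met the study's threshold. Aifm1, a mitochondrial flavoprotein that can enter the nucleus in dying cells, had 99.0, 97.7 and 94.9 CPM in the control libraries against 67.4, 56.5 and 66.8 CPM in the luteolin libraries. The control libraries were nearly identical and all luteolin libraries lay below them, with a log2 fold change of -0.61 (standard error 0.14, 95% interval -0.94 to -0.28, adjusted p = 0.0845 in edgeR's test). Its adjusted p was 0.0047 in DESeq2 and at most 0.357 over the alternatives. Lmna, which encodes lamin A and C, a substrate of caspase-6, had 130 to 176 CPM in the control libraries against 193 to 340 CPM in the luteolin libraries, with a log2 fold change of 0.77 (adjusted p = 0.155 in edgeR's test). The adjusted p of Lmna was 0.0408 in DESeq2 and at most 0.338 over the alternatives. Its highest value was in luteolin replicate 2, the library with high keratinocyte markers. Across all 5 lists the groups did not overlap for 14 of the 44 genes (31.8%), beside 28.7% of all genes tested.

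**Figure D4:**
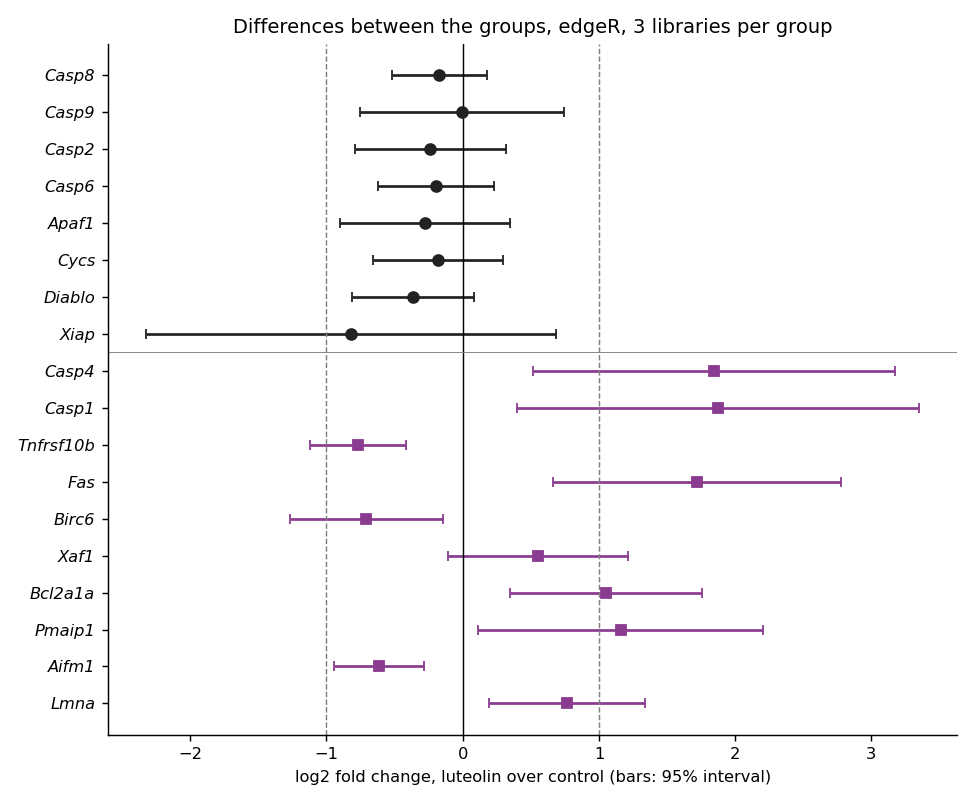
Log2 fold change of the luteolin over the control group with its 95% interval from edgeR (3 libraries per group) for the 8 genes (circles) and for 2 genes of each of the 5 pathway lists, those of smallest p (squares). Dashed lines mark -1 and 1. The intervals of all 8 genes include 0, and the interval of Tnfrsf10b runs from -1.12 to -0.42.

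**Figure D5:**
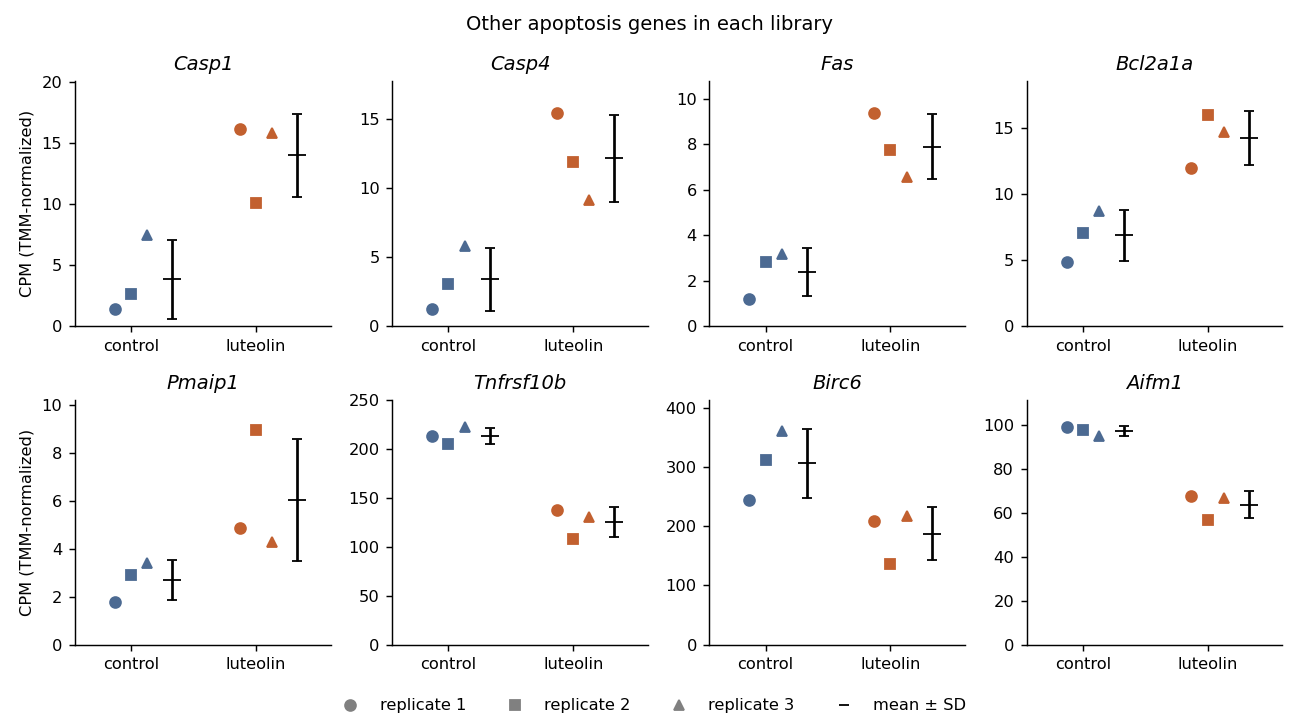
CPM (vertical axes, starting at 0) of 8 genes of the pathway lists in each library, with the group mean and SD as a bar. Casp1 and Casp4 are inflammatory caspases. In each panel the groups do not overlap, with Casp1, Casp4, Fas, Bcl2a1a and Pmaip1 higher and Tnfrsf10b, Birc6 and Aifm1 lower in the luteolin libraries. The genes were picked by small p within their list, which favours such separation. Across all lists the groups did not overlap for 14 of 44 genes, beside 28.7% of all genes tested.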

How the data were processed

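RNA-seq of H22 tumours was analysed, with 3 libraries of the control group and 3 of the luteolin group. The authors deposited 1 whole number per gene symbol and library, and these values were treated as estimated counts because 44.8% of values between 1 and 40 fell on multiples of 4. The labels' processing notes name bcl2fastq 2.0, HISAT2, StringTie, DESeq2 and the builds rn6 and mm39, with no role for each. The annotation and any use of strand are not given in the sources used here. Counts of the whole table were compared with edgeR 4.0.16 in R 4.3.3 (TMM, filterByExpr, quasi-likelihood test, no covariates), with Benjamini-Hochberg adjustment of two-sided p values. The 95% intervals are the log2 fold change with its standard error and edgeR's degrees of freedom. Counting error is covered by a limit of 3 counts for a count of 0.

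Alternatives were DESeq2 1.42.0, RLE and upper-quartile factors, no filter on low counts, voom with quality weights (limma 3.58.1), the replicate number as a block, offsets for GC content and transcript length (splines of 4 and 3 degrees of freedom), counts divided by 4, and fits that left out single libraries. Chosen after seeing the data were the pathway counts under these alternatives and the overlap counts without luteolin replicate 2 or control replicate 3. Ratios within a library used counts plus 0.5. GC content, length, primer positions and sequences came from GENCODE M21 on GRCm38, and no position was taken for the deposited table. The pipeline was tested on simulated data. The members and lists were chosen with earlier results of these data known. The genes named beside the 8 were the 2 with the smallest p in each pathway list and the 2 most abundant of a marker list where given, and 1 gene that this rule selects is not reported here and is left out of the lists and their counts. The other names were added with their values in view, as were Afp, Alb, Serpina1a, Apoa1, Apoa2, Krt8, Ttr, Hnf4a, Ivl and the keratinocyte genes at 0.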

Additional observations from a re-analysis of the deposited data

How the results depend on the processing

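Of the 8 genes, 0 were called at an adjusted p under 0.05 under any of the 15 alternatives, and the smallest adjusted p was 0.0664, for Cycs in voom. At the study's threshold the count was 0 to 1 with a library left out, the 1 being Xiap without control replicate 2, and 0 otherwise. The log2 fold change of Casp9 ranged from -0.28 to 0.21 with a library left out (0.19 without control replicate 1), and was 0.034 with upper-quartile factors and 0.004 with counts divided by 4. That of Cycs ranged from -0.31 to 0.043, and was -0.47 in voom and 0.001 with the replicate block and GC and length offsets. That of Xiap ranged from -1.28 to 0.23 and was 0.30 in voom. The cause was not tested. The other 5 genes stayed under 0 in each alternative, between -0.50 for Diablo without control replicate 2 and -0.04 for Casp2 without control replicate 3. Same-numbered deviations of the 2 groups correlated at -0.20, -0.09 and 0.06, and differently numbered ones at -0.12 to 0.20. With 3 libraries a group these values cannot decide whether the replicate numbers pair the libraries. The replicate block left 0 of the 8 genes called. Over all genes tested, 228 were called at an adjusted p under 0.05, against 1958 in DESeq2, 3197 in voom, 35 with the replicate block, 1014 with GC and length offsets, and 0 to 312 with a library left out. Of the 44 pathway genes the count went from 0 to 7 in DESeq2, 10 in voom and 6 with GC and length offsets, and was 0 with any library left out. At the study's threshold it went from 5 to between 2 and 6 with a library left out. The within-library ratios ranged with a library left out from -0.46 to 0.83 for Apaf1 to Xiap, -0.57 to 0.56 for Diablo to Xiap, -0.52 to 1.00 for Casp9 to Xiap and -0.43 to 0.072 for Casp8 to Casp9. At the study's threshold 88.1% of the genes called were higher in the luteolin group, against 77.9% in voom. For Xiap the 95% interval of the fold ran from 0.200 to 1.605, so that neither a 2-fold decrease nor no change was outside it.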
